A study of Sus scrofa with 75 samples.

Results

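The miR-23, miR-27 and miR-24 miRNAs are made from a pair of short genomic clusters, each of which carries 1 precursor of every family. They were followed in peripheral blood mononuclear cells (PBMCs) of young pigs. The members were chosen by name, as every mature pig miRNA called miR-23a, miR-23b, miR-27a, miR-27b or miR-24, with or without an arm suffix. This gave 8 of the 457 mature names, held in 9 of the 479 entries of the count table. Of these, 7 passed the filter on low counts, as did 209 mature miRNAs in all. The eighth, miR-24-2-5p, had no read in any of the 39 libraries. The rule itself used names only, although earlier results of these data were known when it was set.

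Small RNA was sequenced from 13 pigs, each bled at d 11, d 20 and d 56 of age. The 8 control pigs were reared conventionally in farrowing crates, and the 5 topsoil pigs received fresh topsoil every day from d 4 until d 20. All pigs were weaned at d 20 and moved to a nursery without soil, so that d 11 and d 20 fell within the exposure and d 56 after it. Blood came from piglets of median body weight in their litter, with both sexes in the study, and the PBMCs were separated from whole blood on a density gradient. Values are given by the treatment, pig number and age in the names of the count columns, because the sample characteristics gave the same treatment and age in only 6 of 39 libraries.

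A mature miRNA guides the Argonaute silencing complex to messenger RNAs, mainly through its seed, the bases near the 5′ end that pair with the target. Members that share a seed are expected to share many targets even when they come from different genes. The clusters on both chromosomes are ancient in vertebrates, are each transcribed as a single primary transcript, and are studied in blood for their part in lymphocyte and myeloid differentiation and in endothelial cells. In T cells, miR-24 and miR-27 are known to restrain helper T cell responses, and miR-23 and miR-27 are linked to the control of cytotoxic and regulatory T cells.

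The mature sequences are printed because they show which members can be expected to act alike and which are hard to tell apart by sequencing. All 8 were matched to RefSeq entries for Sscrofa11.1, which is also the genome build of the study, and are written 5′ to 3′ with the seed (bases 2 to 8) in capitals. The chromosome 2 cluster spans 408 bases on the plus strand, and its precursors follow each other in the order MIR23A, MIR27A and MIR24-1. It lies between genes, 2674 bases from ZSWIM4, which is on the opposite strand.
miR-23a: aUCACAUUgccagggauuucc
miR-27a: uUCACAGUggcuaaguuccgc
miR-24-1-5p: gUGCCUACugagcugaaacacagu
miR-24-3p: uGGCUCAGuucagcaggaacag

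The chromosome 10 cluster spans 860 bases on the minus strand in the order MIR23B, MIR27B and MIR24-2. It lies within the protein-coding gene C10H9orf3 on the same strand, and its precursors overlap 0 of the 214 exons annotated for that gene, so they are intronic.
miR-23b: aUCACAUUgccagggauuacca
miR-27b-5p: aGAGCUUAgcugauuggugaaca
miR-27b-3p: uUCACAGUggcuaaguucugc
miR-24-2-5p: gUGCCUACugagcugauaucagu

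By position, miR-23a is at chr2:65308158-65308178, miR-27a at chr2:65308347-65308367 and miR-24-1-5p at chr2:65308464-65308487. On chromosome 10, miR-23b is at chr10:27080206-27080227, miR-27b-5p at chr10:27080011-27080033, miR-27b-3p at chr10:27079971-27079991 and miR-24-2-5p at chr10:27079461-27079483. miR-24-3p is encoded identically at chr2:65308502-65308523 and chr10:27079424-27079445, so its counts cannot be assigned to a cluster. The seed of miR-23a and miR-23b is the same, as is the seed of miR-27a and miR-27b-3p and that of the miR-24 5p arms. None of the 369 mature miRNAs in the annotation outside the 8 members carries one of these seeds.

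The paralogs are nearly identical. Counted from 1 at the 5′ end, miR-23a differs from miR-23b by U19A and lacks the last A of miR-23b, and miR-27a differs from miR-27b-3p by C19U alone. A read that ends before this base, or that was misread there, could be counted on either paralog, so the split between the a and b members is less certain than their sum. The 5p arms of miR-24 differ in sequence near the 3′ end and in length (24 and 23 bases).

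**Figure D1:**
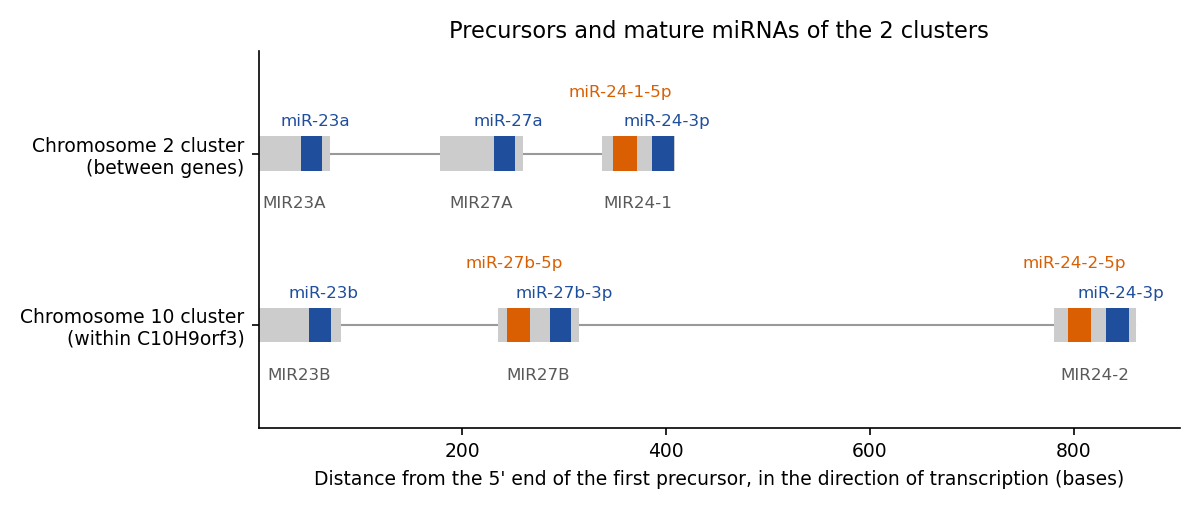
The 6 precursors (grey) and their mature miRNAs (blue for the 3′ arm or the annotated single arm, orange for the 5′ arm) along each cluster, with the distance from the 5′ end of the first precursor in bases on the x axis. MIR27A is 107 bases after MIR23A and 77 bases before MIR24-1, whereas MIR27B is 154 bases after MIR23B and 466 bases before MIR24-2.

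The libraries held between 2570910 and 14311898 counts over all entries of the table. Although the samples are labelled PBMC, most counts in many libraries were of miR-486, an erythroid miRNA, which took between 11.8% and 95.5% of the counts of a library with 1 entry for each mature name. The remaining counts, from 389906 to 6343113 per library, are the effective depth behind the members. Marker miRNAs of the cells and particles that a PBMC preparation can hold moved with age as well. The 3 erythroid miRNAs (miR-486, miR-451 and miR-144) held a median of 91.4% of counts in control and 88.9% in topsoil pigs at d 11, 77.9% and 89.2% at d 20, and 42.4% and 38.03% at d 56. Between d 20 and d 56, all 3 of 3 fell under upper-quartile scaling and 2 of the 7 markers of white cells, platelets and endothelium rose, the lymphocyte miR-150 by 1.35 on the log2 scale and the leukocyte miR-142-5p by 1.17, with adjusted p of 0.000106 and 0.00102 (edgeR). Under that scaling the other 5 did not pass, among them the second lymphocyte marker, miR-342, at -0.12 (adjusted p = 0.822, edgeR), and the other leukocyte arm, miR-142-3p, at 0.13 (adjusted p = 0.864, edgeR). Under all counts the 3 erythroid miRNAs were still lower, but miR-451 at -0.53 (adjusted p = 0.469, edgeR) and miR-144 at -1.29 (adjusted p = 0.328, edgeR) were no longer called. Of the other 5, miR-342 at 1.66 (adjusted p = 0.00445, edgeR) and miR-223 at 1.93 (0.0163) were then called higher. So were miR-126-5p at 4.15 (0.0185) and miR-142-3p at 1.51 (0.0935), but not miR-126-3p at 3.63 (0.150). The median over all miRNAs tested was 1.79 under that scaling. The rises of miR-150 and miR-142-5p were called under all 4 scalings given below. The platelet and endothelial miR-126 arms had a median of 0 in the topsoil libraries at d 20, and no other list had a group median of 0. Because these are bulk samples, fewer cells of a type and less RNA per cell cannot be told apart, and the part of cell makeup in the changes with age below was not tested.

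To compare levels, counts are given per 1000000 counts other than miR-486, written here as CPM without miR-486. No correction for length is needed among mature miRNAs of 21 to 24 bases. miR-27b-3p was by far the most abundant member, with a median of 4338 CPM without miR-486 over the 39 libraries (2328 to 30491) and the rank of 20 among all mature names by total count. miR-27a followed at 759 (310 to 1442), miR-23a at 163 (67.0 to 329) and miR-24-3p at 140 (32.8 to 296). miR-23b was far lower, at 19.6 (0 to 65.5), and the 5p arms were rare, with medians of 7.93 for miR-27b-5p (0 to 23.1) and 5.43 for miR-24-1-5p (0 to 17.6). The lowest miR-27b-3p value exceeded the highest value of every other member. The ranges of miR-23a and miR-24-3p overlapped throughout, as did those of the 5p arms. Within a library, miR-23a had more counts than miR-24-3p in 27 of 39 libraries, with 7 of 13 at d 11, 9 of 13 at d 20 and 11 of 13 at d 56. miR-27b-5p had more than miR-24-1-5p in 19 of 39 and fewer in 16.

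The low members were counted on few reads. miR-23b had a median of 52 counts and was at 0 in 4 libraries, miR-27b-5p a median of 15 and 0 in 9 libraries, and miR-24-1-5p a median of 10 and 0 in 5 libraries. For miR-24-2-5p, 0 counts over all libraries together allow up to 0.0332 CPM without miR-486, a limit that covers counting error only. Its counterpart from chromosome 2, miR-24-1-5p, had 609 counts in total.

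The arms were therefore unequal in favour of the 3′ arm, and the paralogs were unequal in opposite ways. miR-24-3p, which either cluster can make, had 23.3 counts for every count of miR-24-1-5p. On chromosome 10, miR-27b-3p had 708 counts for every count of its 5p arm and 258 for every count of miR-23b, its neighbour on the transcript. On chromosome 2, miR-27a had 4.83 counts for every count of miR-23a. Between the clusters, miR-23a outnumbered miR-23b by 7.44 to 1, whereas miR-27b-3p outnumbered miR-27a by 7.18 to 1. The chromosome 2 member was thus the more abundant of the miR-23 pair and the chromosome 10 member of the miR-27 pair. miR-27b-3p alone made up between 70.7% and 96.9% of the members' counts in a library, with a median of 80.2%. All members together made up between 0.327% and 3.15% of the counts other than miR-486 (median 0.566%).

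The first question was whether the members changed with age. Weaning, the move to the nursery and the end of the topsoil exposure all fell at d 20. In changes to d 56 they cannot be told apart from age. Under the scaling of the study, by the upper quartile, miR-27a and miR-23a of the chromosome 2 cluster were higher at d 56 than at either earlier age. miR-24-3p, which either cluster can make, passed against d 20 and narrowly missed against d 11 (log2 fold change 0.68, adjusted p = 0.103, edgeR). miR-27b-3p did not pass, but its difference from miR-27a, tested below as their ratio, did not pass either (exact permutation test, adjusted p = 0.227 from d 11 and 0.412 from d 20). From d 20 to d 56 over all 13 pigs, miR-27a rose 1.79-fold, miR-23a 1.76-fold and miR-24-3p 1.84-fold. These are 3 of the 7 members tested, all higher, where 16.3% of all miRNAs tested were called and 10.0% were called higher. From d 11 to d 56, miR-27a rose 1.82-fold and miR-23a 1.64-fold, which makes 2 of 7 members, where 25.4% of all miRNAs were called and 17.2% were called higher. The median log2 fold change of the 7 members was 0.81 from d 20 and 0.68 from d 11, beside 0.26 and 0.46 over all 209 miRNAs.

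**Figure D2:**
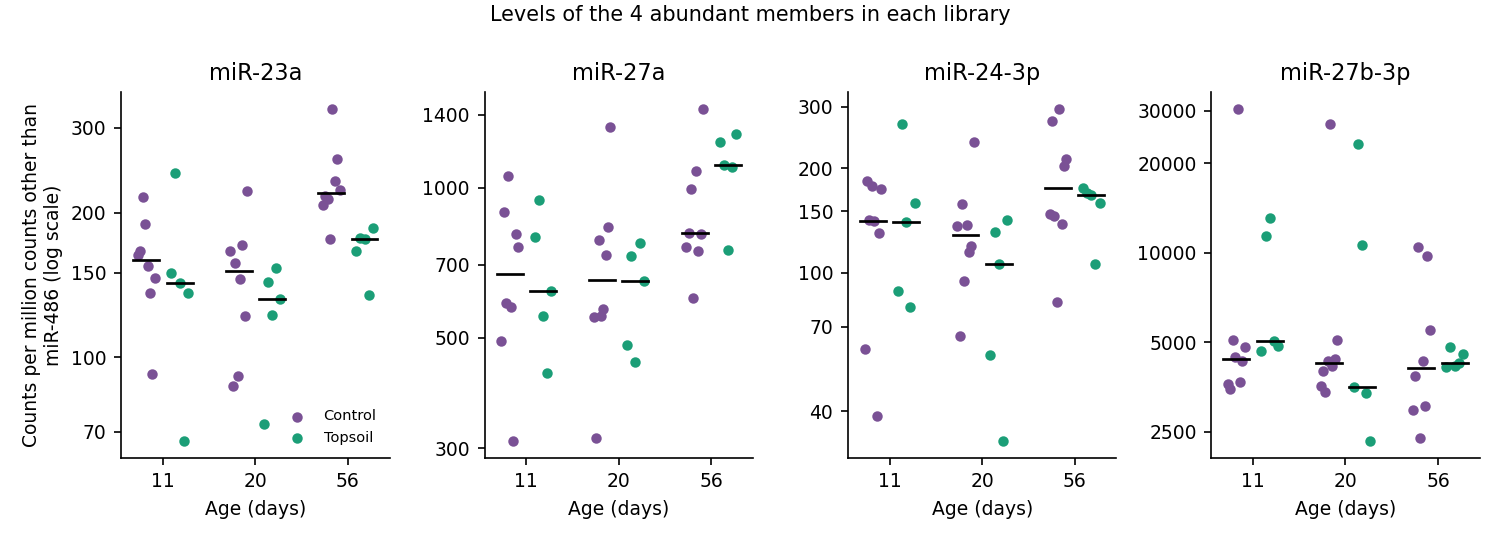
CPM without miR-486 (log axis) of the 4 abundant members by age, with 1 point a library, control in purple (n = 8) and topsoil in green (n = 5), and a black line at the median. miR-27a and miR-23a sit higher at d 56 than at d 11 and d 20, and most miR-27b-3p values lie between 2328 and 5487, with 8 libraries from 9743 to 30491.

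miR-27a, the second most abundant member, showed the change with age most steadily. In control pigs its CPM without miR-486 was 310 at the lowest, 673 at the median and 1057 at the highest at d 11, then 314, 653 and 1322 at d 20, and 600, 810 and 1442 at d 56. In topsoil pigs 1 to 5 it was 797, 947, 554, 424 and 620 at d 11, 485, 728, 447, 774 and 651 at d 20, and 1237, 1109, 749, 1102 and 1283 at d 56. The ages overlapped in both treatments. On this scale 12 of 13 pigs were higher at d 56 than at d 20, and 10 of 13 higher than at d 11, and under upper-quartile scaling 13 and 11 of 13. Under that scaling the log2 fold change was 0.84 (SE 0.22, adjusted p = 0.00577) from d 20 to d 56 and 0.87 (SE 0.20, adjusted p = 0.00190) from d 11 to d 56 in the edgeR quasi-likelihood test.

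miR-23a, which shares the primary transcript of miR-27a, moved in the same direction at a lower level. Control pigs had 92.2 at the lowest, 159 at the median and 216 CPM without miR-486 at the highest at d 11, 87.2, 151 and 222 at d 20, and 177, 220 and 329 at d 56. Topsoil pigs 1 to 5 had 150, 242, 143, 67.0 and 136 at d 11, 72.6, 143, 123, 153 and 132 at d 20, and 167, 177, 176, 135 and 186 at d 56. Of the control pigs, the lowest at d 56 still stood above the median of both earlier ages. The log2 fold change was 0.81 (SE 0.26, adjusted p = 0.0329, edgeR) from d 20 to d 56, with 13 of 13 pigs higher, and 0.71 (SE 0.24, adjusted p = 0.0273, edgeR) from d 11 to d 56, with 11 of 13 higher. In CPM without miR-486, 12 and 10 of 13 pigs were higher. Neither rise was called when scaled without miR-486 (adjusted p = 0.191 and 0.296, edgeR), and that from d 11 was also lost without the filter on low counts.

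miR-24-3p, the member that either cluster can make, was more variable. Control pigs had 38.8, 141 and 184 (lowest, median, highest) CPM without miR-486 at d 11, 65.6, 128 and 238 at d 20, and 82.4, 175 and 296 at d 56. Topsoil pigs 1 to 5 had 88.4, 267, 140, 79.6 and 158 at d 11, 57.8, 131, 106, 32.8 and 141.9 at d 20, and 175, 169, 168, 106 and 159 at d 56. The lowest values of both earlier ages reached below every value at d 56, and the highest values overlapped. The log2 fold change was 0.88 (SE 0.32, adjusted p = 0.0654, edgeR) from d 20 to d 56 and 0.68 (SE 0.29, adjusted p = 0.103, edgeR) from d 11 to d 56, so only the first passed. The first also lost its call when any 1 of 5 pigs was left out (control pigs 2, 5 and 7, topsoil pigs 2 and 4), with the largest adjusted p, 0.229, without topsoil pig 4, and it was lost without the filter on low counts (adjusted p = 0.108).

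miR-27b-3p gave no change with age that passed the test. Control pigs had 3473, 4395 and 30491 (lowest, median, highest) CPM without miR-486 at d 11, 3417, 4247 and 27011 at d 20, and 2387, 4097 and 10448 at d 56. Topsoil pigs 1 to 5 had 4689, 11381, 13057, 5058 and 4877 at d 11, 3540, 23216, 10597, 3392 and 2328 at d 20, and 4137, 4839, 4152, 4276 and 4563 at d 56. The control medians lie close together at all ages, whereas the topsoil medians were 5058 at d 11, 3540 at d 20 and 4276 at d 56. The highest values come from some of the libraries, described below. The log2 fold change was 0.14 (SE 0.31, adjusted p = 0.805, edgeR) from d 20 to d 56 and 0.04 (SE 0.28, adjusted p = 0.926, edgeR) from d 11 to d 56, with signs that depend on the scaling (below).

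The members with few reads had wide errors. Between d 20 and d 56, miR-23b had a log2 fold change of 0.67 (SE 0.79), miR-27b-5p of 0.92 (SE 1.13) and miR-24-1-5p of -0.82 (SE 0.95). From d 11 to d 56, the values were 0.27 (SE 0.71), 0.86 (SE 0.99) and 0.29 (SE 0.86). None passed the test, with standard errors of 0.71 to 1.13 beside changes of 0.84 and 0.87 for miR-27a. What size of change could have been detected was not tested. Between d 11 and d 20, before weaning, 0 of 7 members and 0 of 209 miRNAs (0%) passed in edgeR. Unadjusted p was under 0.05 in 12 miRNAs, none of them a member, and DESeq2 called 4 miRNAs, again no member.

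The size of the rise depended on what the counts were scaled by, and miR-486 took a smaller share with age. Over the whole table, the median log2 fold change from d 20 to d 56 was 0.26 under upper-quartile scaling, 0.18 under TMM scaling, 0.02 when scaled by counts other than miR-486, and 1.79 when scaled by all counts. Between d 11 and d 56 these medians were 0.46, 0.29, 0.14 and 2.38. Of all miRNAs called from d 11 to d 56, 67.9% were higher under the upper quartile, but 57.4% in DESeq2, 39.02% without miR-486 and 99.4% under all counts. The higher share from d 20 to d 56 was 61.8% under the upper quartile, 32.3% without miR-486 and 99.1% under all counts. A change of scaling shifts all miRNAs nearly alike, so values relative to the median vary less by construction. miR-27a stood above that median by 0.58 to 0.62 from d 20 to d 56 and by 0.40 to 0.52 from d 11 to d 56 under these 4 scalings, and miR-27b-3p at -0.42 to -0.24 relative to it from d 11 to d 56.

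miR-27a was called higher under each of the 4 scalings in both comparisons. Without miR-486, its log2 fold change was 0.60 (SE 0.22, adjusted p = 0.0721, edgeR) from d 20 and 0.55 (SE 0.20, adjusted p = 0.0646, edgeR) from d 11. miR-23a and miR-24-3p kept their direction without miR-486 but were no longer called, miR-23a at 0.55 (SE 0.26, adjusted p = 0.191, edgeR) and miR-24-3p at 0.66 (SE 0.31, adjusted p = 0.191, edgeR) from d 20 to d 56. The rise of miR-23a from d 11 to d 56 was likewise lost without miR-486 (0.39, SE 0.24, adjusted p = 0.296, edgeR) and without the filter on low counts (0.61, adjusted p = 0.120, edgeR). Under all counts, 5 members were called higher from d 20 and all 7 tested from d 11. The fold change of miR-27b-3p from d 11 to d 56 was -0.26 without miR-486 (SE 0.27) and 2.14 under all counts (SE 0.53), so no direction is given for it.

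**Figure D3:**
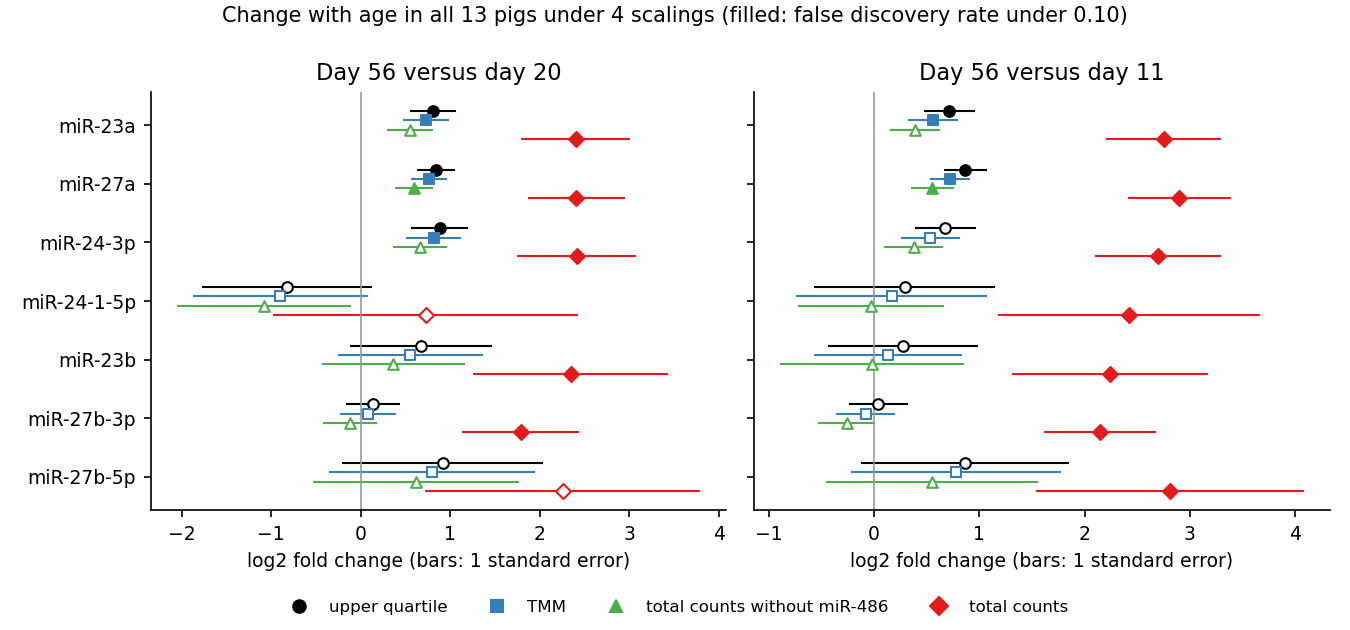
The log2 fold change with age of the 7 tested members over all 13 pigs (x axis), with 1 standard error, under 4 scalings, with filled symbols for a false discovery rate under 0.10. miR-27a is filled under all 4 in both panels, whereas scaling by all counts (red) moves every member to the right together with the median of all miRNAs.

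Within each treatment, fewer pigs entered each change. In control pigs, miR-23a was called higher from d 20 to d 56, where 12.4% of all miRNAs were called, and miR-23a, miR-27a and miR-24-3p from d 11 to d 56, where 17.7% were called. In topsoil pigs, miR-27a was called higher in both comparisons, where 9.57% and 13.4% of all miRNAs were called. From d 11 to d 20, no member was called in either treatment, where 5.26% of all miRNAs were called in control and 0% in topsoil pigs. These calls within a treatment rest on few pigs. In control pigs, the call of miR-23a from d 20 was lost without control pig 2, 5 or 7, and DESeq2 called 3 members there. The 3 calls from d 11 fell to 1 without control pig 1, 6 or 7, and to 0 without the filter on low counts. In topsoil pigs, the call of miR-27a from d 20 was lost without topsoil pig 1, 2, 4 or 5, and that from d 11 without topsoil pig 1, 4 or 5. Both were lost without the filter, and the one from d 20 also when every entry was kept. No member was called within either treatment when scaled without miR-486, whereas scaling by all counts called 0 and 4 members in control pigs and 4 and 5 in topsoil pigs from d 20 and d 11. These differences between treatments in what passed are not differences in the change itself. The treatment by age interaction, which tests that, called 0 of 7 members and 0 of 209 miRNAs (0%) in edgeR, and the smallest unadjusted p of a member was 0.342, for miR-24-3p. Unadjusted p was under 0.05 in 22 of 209 miRNAs in edgeR, DESeq2 called 0, and limma with pig as a random effect called 2 of 209 (31 with an unadjusted p under 0.05), neither of them a member.

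The second question was whether topsoil pigs differed from control pigs at a given age. No member passed at d 11, d 20 or d 56, where 0%, 0.957% and 0% of all miRNAs were called (edgeR). Unadjusted p was under 0.05 in 7, 28 and 5 of 209 miRNAs, none of them a member. DESeq2 called 3, 9 and 0 miRNAs, none of them a member. At d 56, after the exposure had ended, miR-23a in the 5 topsoil pigs lay between 135 and 186 CPM without miR-486 and in the 8 control pigs between 177 and 329, so that the groups overlapped between 177 and 186. The log2 fold change of topsoil against control was -0.51 (SE 0.26, adjusted p = 0.924, edgeR), and the unadjusted p of 0.0628 was the smallest of any member. miR-27a was on the other side, at 0.26 (SE 0.24, adjusted p = 0.924, edgeR), and miR-24-3p, miR-27b-3p and miR-23b were at -0.29 (SE 0.33), -0.27 (SE 0.32) and -0.93 (SE 0.58). The 5p arms were at 0.81 (SE 0.99) for miR-27b-5p and 0.09 (SE 0.80) for miR-24-1-5p.

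Ratios between members within a library do not depend on the scaling, and 48 comparisons of 6 ratios were made with exact permutation tests over pigs. None passed a false discovery rate of 0.10, and the smallest adjusted p was 0.227. The ratio of miR-27a to miR-27b-3p, which share a seed, had a median of 0.127 at d 11 (0.0189 to 0.258), 0.154 at d 20 (0.0212 to 0.280) and 0.250 at d 56 (0.0828 to 0.299). At d 56 it was higher than at d 11 in 10 of 13 pigs, by 0.95 on the log2 scale (SD 1.24, exact two-sided permutation p = 0.0142, adjusted p = 0.227). From d 20 to d 56 it was higher in 11 of 13 pigs, by 0.84 (SD 1.42, exact p = 0.0520, adjusted p = 0.412), and from d 11 to d 20 in 8 of 13, by 0.11 (SD 0.99, exact p = 0.695, adjusted p = 0.980). Without control pig 7, the change from d 11 to d 56 was 1.13 and passed (exact test, adjusted p = 0.0820).

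The sums over the clusters are mostly miR-27a and miR-27b-3p, so their ratio nearly repeats the one above and is no separate support for it, and miR-24 is not in it. The summed counts of miR-23a and miR-27a over those of miR-23b and miR-27b-3p had a median of 0.157 at d 11, 0.201 at d 20 and 0.302 at d 56. The change from d 11 to d 56 was 0.93 on the log2 scale (SD 1.20, higher in 10 of 13 pigs, exact p = 0.0117, adjusted p = 0.227), and from d 20 to d 56 it was 0.86 (SD 1.40, higher in 10 of 13, exact p = 0.0464, adjusted p = 0.412). miR-24-3p relative to the sum of the 4 miR-23 and miR-27 members from the 3′ arms changed by 0.69 from d 11 to d 56 (SD 1.19, 8 of 13 higher, exact p = 0.0498, adjusted p = 0.412) and by 0.79 from d 20 to d 56 (SD 1.37, 9 of 13 higher, exact p = 0.0601, adjusted p = 0.412). The ratio of miR-27b-3p to miR-23b, on the same transcript, changed by -1.01 from d 20 to d 56 (SD 1.98, lower in 8 of 13, exact p = 0.0957, adjusted p = 0.574) and by -0.61 from d 11 to d 56 (SD 2.05, exact p = 0.407, adjusted p = 0.980). Libraries with no read of miR-23b set the highest values of this ratio, whereas the lowest, 56.7 in control pig 1 at d 56, rests on 192 counts of miR-23b.

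**Figure D4:**
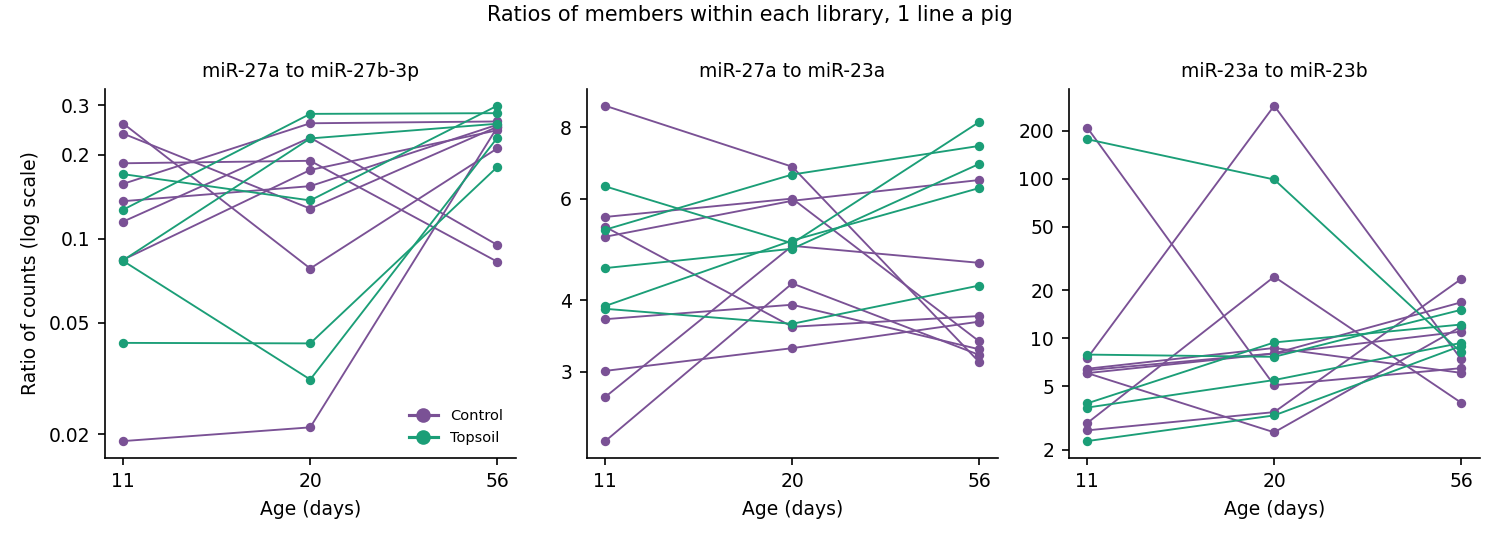
Ratios of counts within a library (log axes) against age for each of the 13 pigs, with control in purple and topsoil in green. The ratio of miR-27a to miR-27b-3p draws together between 0.0828 and 0.299 at d 56, and the ratio of miR-27a to miR-23a separates the treatments most at d 56, with overlap.

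miR-27a and miR-23a lie on the same transcript, yet their ratio at d 56 gave the smallest unadjusted p between treatments. It was the only 1 of 30 such tests with an unadjusted p under 0.05. The largest difference was another, 0.77 in the change of miR-27a to miR-27b-3p from d 11 to d 56 (exact p = 0.314, adjusted p = 0.980). At d 56 the ratio of miR-27a to miR-23a was 7.42, 6.27, 4.24, 8.16 and 6.90 in topsoil pigs 1 to 5, and 3.12 at the lowest, 3.53 at the median and 6.47 at the highest in control pigs. The groups overlapped through control pig 8 (6.47) and control pig 3 (4.64) on one side and topsoil pigs 2 and 3 on the other. The difference was 0.75 on the log2 scale (exact two-sided permutation p = 0.00932, adjusted p = 0.227), and it does not pass the correction. At d 11 the topsoil and control medians were 4.55 and 4.43, and at d 20 they were 5.02 and 4.62. The change from d 11 to d 56 differed between the treatments by 0.58 (exact p = 0.1103, adjusted p = 0.588). Over all pigs this ratio had not moved from d 11 to d 56 beyond its spread (0.10, SD 0.65, exact p = 0.605, adjusted p = 0.980).

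miR-27b-3p stood high in 8 of 39 libraries, at 9743 CPM without miR-486 or more, and the next library was at 5487. These were control pig 5 at d 11 (30491) and d 20 (27011), topsoil pig 2 at d 20 (23216) and d 11 (11381), topsoil pig 3 at d 11 (13057) and d 20 (10597), control pig 3 at d 56 (10448) and control pig 7 at d 56 (9743). Each of the pigs high at d 11 was high again at d 20 and not at d 56. The 8 values rest on 12984 to 61598 counts. In control pig 5, miR-27b-3p was 30491, 27011 and 4328 at d 11, d 20 and d 56.

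The other members differed in these 8 libraries. miR-23b and miR-27b-5p, from the same transcript, were each above their median over all 39 libraries (19.6 and 7.93) in 7 of the 8, and so was miR-24-1-5p, from chromosome 2, in 6 of the 8 (5.43). miR-27a, miR-23a and miR-24-3p were above theirs in 3 of the 8. In control pig 5 at d 11, miR-27a was at 576 and miR-23a at 155, both below their medians over all libraries. miR-27b-5p was at 17.1 and miR-23b at 58.4, on 29 and 99 counts, near the highest values of each over all libraries (23.1 and 65.5). At d 20 the same pig had 21.3 of miR-27b-5p and 41.9 of miR-23b. In topsoil pig 2 at d 20, with 61598 counts of miR-27b-3p, miR-27b-5p stood at 15.8 and miR-23b at 26.01. In topsoil pig 2 at d 11, miR-23a (242), miR-24-3p (267) and miR-23b (65.5) were also the highest of all 13 pigs at that age, with miR-27a at 947 and miR-27b-5p at 3.34.

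**Figure D5:**
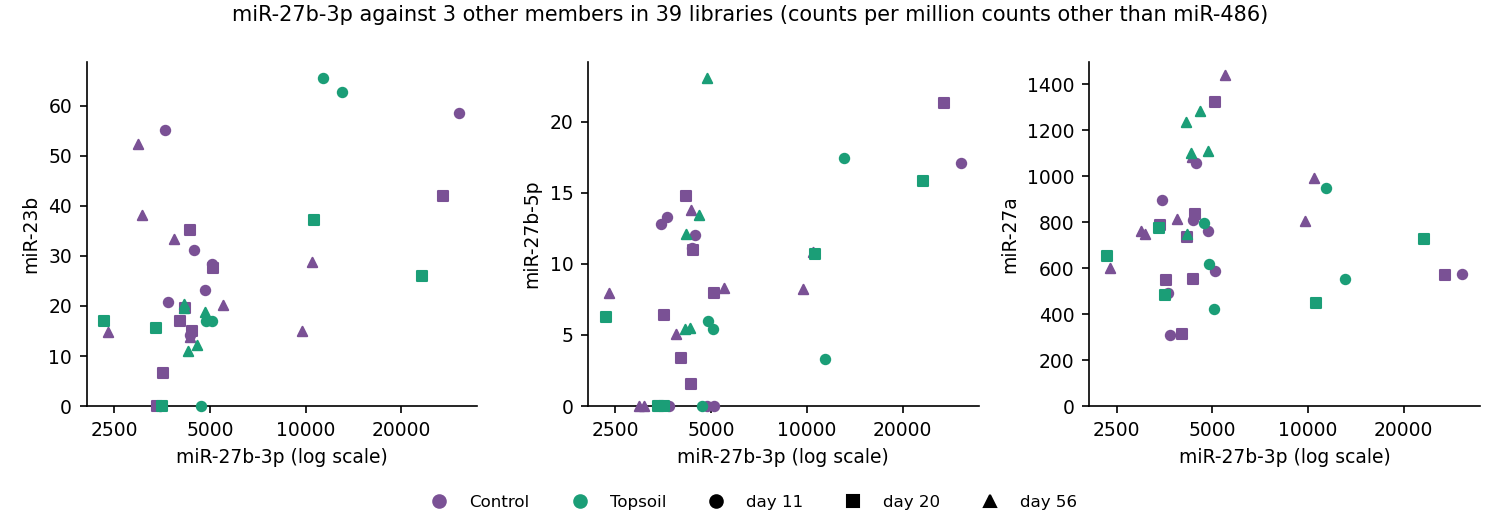
miR-27b-3p (x axis, log) against miR-23b, miR-27b-5p and miR-27a (y axes, linear) in 39 libraries, all in CPM without miR-486, with colour for treatment and shape for age. The 8 libraries at 9743 or more hold miR-27a levels of at most 994, and none of them has 0 reads of miR-23b or miR-27b-5p.

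Across the 39 libraries, which share pigs and treatments, miR-23a, miR-24-3p and miR-27a varied together more closely than the other members. Spearman's rho of the upper-quartile scaled levels was 0.81 between miR-23a and miR-24-3p, 0.80 between miR-27a and miR-24-3p, and 0.73 between miR-23a and miR-27a. With miR-27b-3p it was 0.33 for miR-23a, 0.38 for miR-24-3p, 0.22 for miR-27a and 0.58 for miR-23b. Of the low members, miR-24-1-5p had 0.16 with miR-23a and 0.25 with miR-27a, miR-27b-5p 0.20 and 0.16, and miR-23b 0.41 and 0.12. Scaled without miR-486, the first 3 were 0.70, 0.69 and 0.58, and that of miR-27b-3p with miR-23b was 0.39. These values describe the libraries and also carry the shared scaling and age.

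Among the other miRNAs, those whose levels were most like the 4 members with a median of at least 100 counts were miR-21-5p, miR-146a-5p, miR-363, miR-361-5p and miR-532-5p, with a mean Spearman's rho of 0.58, 0.57, 0.56, 0.55 and 0.54 over the 39 libraries. These means include lower values with miR-27b-3p, and single pairs came near those among the members. miR-21-5p had 0.745 with miR-27a, beside 0.735 between miR-23a and miR-27a. miR-361-5p and miR-146a-5p had 0.665 and 0.654 with miR-23a. miR-21-5p and miR-146a-5p are widely expressed in activated immune cells. For miR-27b-3p alone, with levels scaled without miR-486, the most similar of 202 miRNAs reached 0.55 (miR-7135-3p), 0.53 (miR-212) and 0.50 (miR-151-5p). On that scale its cluster partners miR-23b and miR-27b-5p were lower, at 0.39 and 0.44. This rank correlation is over all 39 libraries and is not a comparison of the 8 high ones with the rest.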

How the data were processed

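Small RNA counts of 39 PBMC libraries were used. The authors deposited raw read counts for each mature miRNA and precursor, made with miRDeep2 (version not given in the sources used here) on Sscrofa11.1, without normalization. Library sums are given above; reads carry no molecular identifiers. One entry was kept per mature name, the one with the largest total. Those detected in 17 or more libraries with a mean count above 2 were tested with the edgeR 4.0.16 quasi-likelihood test in R 4.3.3, with upper-quartile (75%) scaling, pig as block, treatment by age and the RNA quality index, and p-values adjusted by Benjamini-Hochberg and called under 0.10. Treatments were compared at each age without the block. The study used SAS with pig as a random effect. Age and treatment come from the column names, which also pair the libraries of a pig. The groups, the block and all counts of pigs higher or lower therefore rest on these names. Deviations of the same pig had a mean correlation of 0.0554, against -0.00298 between pigs.

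Ratios, with a pseudocount of 0.5, were tested by exact sign-flip and permutation tests (Python 3.11.15, scipy 1.17.1) and adjusted over all 48. Alternatives were TMM, total counts with and without miR-486, DESeq2 1.42.0, limma 3.58.1, no filter, no RNA quality term, every entry, no block, a pseudocount of 1 and each pig left out. Named miRNAs were all members, the marker lists and the 5 most similar miRNAs with members of at least 100 median counts; the 3 most similar to miR-27b-3p and the libraries where it stood high were chosen after their values were seen. The members and lists were chosen with earlier results of these data known. The code was tested on simulated data. The mRNA counts were not used here, and neither were targets.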

Additional observations from a re-analysis of the deposited data

Results flagged for a closer look

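In 42 groups of 5 or 8 pigs searched (7 members, 2 treatments, 3 ages), 4 held a library far from the rest of its group, where chance alone gives about 1 in 20, or 2.1. miR-27b-3p was at 30491 CPM without miR-486 in control pig 5 at d 11, where the next highest of the 8 control pigs was 5093. In the same pig at d 20 it was at 27011, and the next highest was 5109. These values of the same animal rest on 51656 and 44439 counts. miR-24-3p was at 105.7 in topsoil pig 4 at d 56, the lowest of 5 pigs, where the next lowest was 158.9, on 406 counts. miR-24-1-5p was at 17.59 in topsoil pig 5 at d 20, where the next highest was 7.161, on 31 counts only.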

How the results depend on the processing

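The rise of miR-27a to d 56 over all pigs kept its direction and its call under every alternative run. With 1 pig left out its log2 fold change was 0.74 to 0.89 from d 20 and 0.79 to 0.99 from d 11, and it was lower without miR-486 (0.60 and 0.55) and higher under all counts (2.41 and 2.90). Between d 20 and d 56, 3 members were called in the main test, 5 when scaled by all counts and 1 without miR-486. From d 11 to d 56, 2 were called, against 7 under all counts, 1 without miR-486 and 1 without the filter. Without the replicate block for pig, 3 were called in both comparisons. miR-24-3p was called from d 11 without the block (adjusted p = 0.0981, edgeR) and without the RNA quality term (0.0733), and also without control pig 3 or 4 or topsoil pig 2. Ratios between ages called 0 in all, and 0 to 2 with 1 pig left out, the 2 without control pig 7. The other counts over all pigs, between treatments and of ratios between treatments stayed within 1.5 times. Counts within a treatment are given above with the pigs they rest on.

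Among the members and their ratios, signs changed only in values not called in the main test, although miR-27b-3p, miR-23b and miR-24-1-5p were called higher from d 11 to d 56 under all counts. Between d 20 and d 56, miR-24-1-5p was 0.72 under all counts and miR-27b-3p -0.12 without miR-486, and -0.071 to 0.39 with 1 pig left out. From d 11 to d 56, miR-27b-3p was -0.080 under TMM, -0.26 without miR-486, -0.14 in DESeq2, -0.033 without the filter, -0.33 without the replicate block, -0.041 in limma and -0.11 to 0.24 with 1 pig left out. In that comparison miR-23b was -0.019 without miR-486, -0.26 without the block and -0.25 to 0.55 with 1 pig left out, and miR-24-1-5p -0.030 without miR-486 and -0.33 to 0.60. For topsoil against control at d 56, miR-24-3p was 0.025 under all counts, and miR-24-1-5p -0.00027 without miR-486, -0.062 without the filter, -0.0061 without the RNA quality term and -0.14 to 0.50 with 1 pig left out. The ratio of miR-27a to miR-27b-3p from d 11 to d 20 was -0.0040 to 0.26. Between d 11 and d 20, where no member passed, 22 of 154 values under alternatives had the other sign, as had 30 of 140 for topsoil against control at d 11 and 7 of 140 at d 20. Causes were not tested. Members with medians of 10 to 52 counts limit what can be seen.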
